A study of Mus musculus with 4 samples.

Results

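Glycolytic enzymes and their germ-cell paralogs were followed in IGF2BP3 eCLIP-seq data of mouse testis, through 10 genes: Gapdh, Gapdhs, Pgk1, Pgk2, Ldha, Ldhc, Hk1, Pgam2, Aldoa and Pkm. A cluster of reads was given to a gene when its centre lay inside the gene's annotated span in mm10, on the gene's own strand. The 10 genes are part of 18068 annotated genes that held a cluster in at least 1 replicate. All 10 held clusters in replicate 1, and all but Pgk1 did in replicate 2.

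Testes of 8-week-old, wild-type C57BL/6 mice, with their germ cells and somatic cells, were crosslinked with ultraviolet light, and RNA bound to IGF2BP3 was pulled down with an IGF2BP3 antibody (IP). RNA of the same lysate kept before the pull-down served as the size-matched input (SMInput). There were 2 IP and 2 SMInput samples, paired as replicate 1 and replicate 2, and each suspension pooled a pair of testes. Usable reads came to 5133438 in the IP and 8706391 in the SMInput of replicate 1, and to 4637612 and 16696122 in replicate 2. These totals were recovered from the deposited values. The libraries hold RNA of whole testis, so fewer cells of a type and less RNA per cell cannot be told apart.

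Glycolysis splits glucose into pyruvate and makes ATP, and sperm run much of it along the tail, where several of its enzymes are fixed to the fibrous sheath. Male germ cells replace some of the common enzymes with paralogs of their own: Gapdhs for Gapdh, Pgk2 for Pgk1 and Ldhc for Ldha. Several of these germ-cell mRNAs are made during meiosis, and some are stored before they are translated in spermatids.

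The log2(fold change) of a cluster is the authors' measure of enrichment, IP reads over SMInput reads after scaling by library, and a value above 0 means more reads in the IP. A significant peak is a cluster in which both the log2(fold change) and the −log10(P value) reach 2. The 10 genes held 252 clusters in replicate 1, of which 9 were significant (3.57%), while 4.92% of all clusters of that replicate were. In replicate 2 they held 218 clusters, of which 15 were significant (6.88%), against 13.2% of all clusters. Over the 10 genes together, significant peaks were thus a smaller part of the clusters than in the whole of either table. Among clusters centred in exons, 8 of 190 were significant in replicate 1 (4.21%), against 9.10% of all exonic clusters, and 9 of 182 in replicate 2 (4.95%), against 15.3%. Among the 3 germ-cell paralogs, 7 of 60 exonic clusters were significant in replicate 1 (11.7%), above the share of all exonic clusters, and 8 of 67 in replicate 2 (11.9%), below it. Their 3 somatic counterparts had 1 of 27 and 1 of 24, and the 4 other genes had none.

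With the −log10(P value) alone at 2 or more, the order was different. Of the 190 exonic clusters, 70 passed in replicate 1 (36.8%), where 15.0% of all exonic clusters did. In replicate 2, 91 of 182 passed (50%), against 25.5% of all exonic clusters. Many exonic clusters of these genes therefore had clear but moderate enrichment. Most of them belonged to the 3 germ-cell paralogs, with 50 of 60 exonic clusters past this limit in replicate 1 and 56 of 67 in replicate 2. The 3 somatic counterparts had 5 of 27 and 13 of 24, and the 4 other genes 15 of 103 and 22 of 91. A cluster passes this limit more easily when it holds more reads, and the genes differed widely in reads per cluster, from a median of 8 IP reads in Pgk1 to 111.5 in Ldhc in replicate 1. The part of depth in these counts was not tested.

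A significant peak in both replicates was found in 5 of the 10 genes, Gapdhs, Ldha, Ldhc, Pgk2 and Pkm, while 27.8% of the 18068 genes had one. Genes with many clusters have more chances to hold a peak. Among the 10313 genes with at least 10 clusters over both replicates, a minimum chosen after the values were seen, 46.7% had a peak in both replicates, and 5 of the 9 listed genes with that many clusters did. The share among the listed genes is thus near that of other genes with as many clusters. Hk1 had significant peaks in replicate 2 alone. Gapdh, Pgk1, Aldoa and Pgam2 had none.

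**Figure D1:**
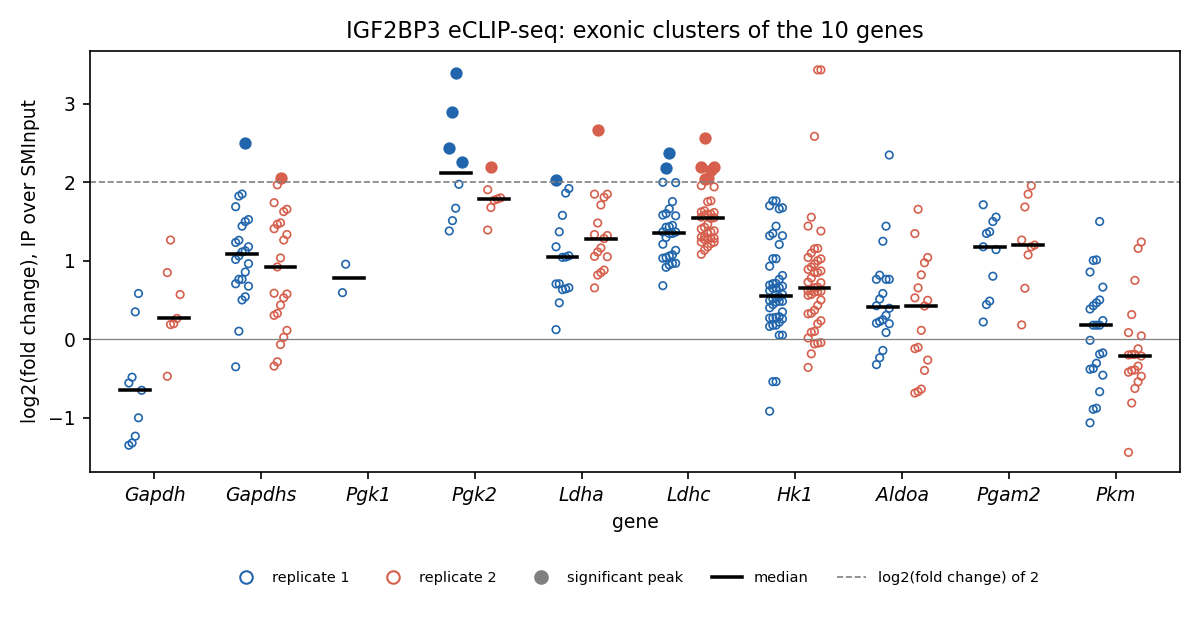
Each point is an exonic cluster of 1 of the 10 genes, with its log2(fold change) of IP over SMInput on the vertical axis, blue for replicate 1 and red for replicate 2, filled where significant, with a bar at the median. Ldhc, Pgk2, Ldha and Pgam2 have every exonic cluster above 0 in both replicates, while 11 exonic clusters of Pkm in replicate 1 and 14 in replicate 2 are below 0.

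Pgk2 encodes the germ-cell phosphoglycerate kinase, which makes ATP by moving a phosphate group to ADP. It is an intronless copy on chromosome 17 (mm10 chr17:40207015-40208640, minus strand) of the X-linked Pgk1. Its median log2(fold change) over exonic clusters was 2.12 in replicate 1, where 8 clusters ran from 1.38 to 3.39, and 1.79 in replicate 2, where 7 clusters ran from 1.39 to 2.19. In all 15 clusters the −log10(P value) reached 2. The medians of Pgk2 were the highest among the 10 genes in both replicates. Of 6853 genes with at least 5 exonic clusters in each replicate, 92.6% had a lower median than Pgk2 in replicate 1 and 77.3% in replicate 2. The median over these genes was 1.05 in replicate 1 and 1.25 in replicate 2. These ranks take no account of region. Among clusters of all genes, coding ones had medians of 0.76 and 0.93 in replicates 1 and 2, and 3′UTR ones 1.76 and 1.85.

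By region, the coding clusters of Pgk2 had a median of 2.44 in replicate 1 and the 3′UTR clusters one of 1.51, while both were 1.79 in replicate 2. The peaks of Pgk2 that passed both thresholds were at different positions in the replicates, as were 67.0% of the significant peaks of all genes in replicate 1 and 81.5% in replicate 2, which met no significant peak of the other. In replicate 1, all 4 lay in the coding sequence. The strongest, chr17:40207311-40207360, ended close to the stop codon and had a log2(fold change) of 3.39 from 31 IP and 5 SMInput reads, with a 95% counting interval of 2.02 to 5.11. Such intervals cover counting error only. No cluster of replicate 2 overlapped it, nor the peak at chr17:40207460-40207500 (2.44, from 32 IP and 10 SMInput reads). The other peaks of replicate 1 did meet clusters of replicate 2. The peak at chr17:40208206-40208262 had a value of 2.26 (interval 1.44 to 3.15) and met a cluster at 1.68 (0.94 to 2.41). At chr17:40207588-40207597 the value was 2.90 (1.46 to 4.66), and the overlapping cluster had 1.90 (1.06 to 2.76). In each of these places the intervals of the replicates overlap. The clusters compared differ in extent, and the places were picked because replicate 1 passed the thresholds. Neither a difference nor a likeness of the replicates is read from them. The single significant peak of replicate 2, chr17:40207168-40207179 in the 3′UTR, had 2.19 (1.13 to 3.27) and met a cluster of replicate 1 at 1.67 (0.75 to 2.64). Over all 5 overlapping pairs of Pgk2 clusters, both values were at least 1, and the median absolute difference was 0.52. The clusters covered 22.0% of the 1626 bases of the mRNA in replicate 1 and 17.7% in replicate 2, with a long stretch of coding sequence free of clusters in both.

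Pgk1 encodes the enzyme of other cells and had 3 clusters in all, each in replicate 1. The exonic pair had log2(fold change) values of 0.59 and 0.95, from 8 IP reads each, and neither −log10(P value) reached 2. The median of Pgk2 was above that of Pgk1 by 1.34 in replicate 1, and its highest exonic cluster by 2.44, while replicate 2 gave no value for Pgk1. The coding sequences of Pgk2 and Pgk1 are 79.3% identical. Of the 40-base windows of the Pgk1 mRNA, 93.5% have an exact copy elsewhere in the genome, and none of the Pgk2 mRNA do. A read that lies within such a window has more than 1 exact match, while a longer read may still be placed. Read lengths were not analysed here. The part of these copies in the low number of Pgk1 clusters was not tested.

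Ldhc encodes the germ-cell lactate dehydrogenase, which interconverts pyruvate and lactate (chr7:46861203-46878142, plus strand). Its 28 exonic clusters of replicate 1 had a median log2(fold change) of 1.36, from 0.68 to 2.37, and its 37 of replicate 2 had a median of 1.54, from 1.08 to 2.56. The −log10(P value) reached 2 in 27 of the 28 and in all 37. The clusters covered 82.0% of the mRNA in replicate 1 and 81.2% in replicate 2, and 81.1% was covered in both. Enrichment of Ldhc was thus spread along most of the mRNA, at a moderate height. Its median was above that of 71.4% of the 6853 genes in replicate 1 and of 68.0% in replicate 2.

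Along the Ldhc mRNA, the last exon stood highest in both replicates. The median of exon 8 was 2.00 in replicate 1 and 2.05 in replicate 2, while the other 7 exons lay between 0.97 and 1.58 in replicate 1 and between 1.20 and 1.59 in replicate 2. Exon 8 holds the 3′UTR as well as the end of the coding sequence. Among clusters of all genes, 3′UTR ones were also higher than coding ones, with medians of 1.76 and 1.85 against 0.76 and 0.93. All significant peaks of Ldhc were in exon 8. Replicate 1 had them at chr7:46877778-46877789, with a log2(fold change) of 2.18 (1.60 to 2.80) from 91 IP and 34 SMInput reads, and at chr7:46877914-46877962, with 2.37 (1.84 to 2.93) from 119 and 39 reads. In replicate 2, 6 peaks touched each other from 46877776 to 46877952, with values from 2.04 to 2.56 and 92 to 162 IP reads. The stretch therefore runs across the stop codon, from the end of the coding sequence into the 3′UTR. Between the peaks, the clusters of replicate 1 had values from 1.57 to 2.00, below the threshold.

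Peaks of both replicates that overlapped were joined to shared sites. There were 3896 such sites in all genes, of which 2 lay in the 10 genes, both in exon 8 of Ldhc. They held 2 of the 9 significant peaks of these genes in replicate 1 and 3 of the 15 in replicate 2. Of all significant peaks, 33.0% in replicate 1 and 18.5% in replicate 2 lay in shared sites. Pooled over all genes, most significant peaks were thus not shared. The first, chr7:46877776-46877795, lies in the coding sequence, and the second, chr7:46877901-46877962, in the 3′UTR. Windows of 100 bases around the sites were searched on the RNA strand for GGAC, a core of many m6A sites, and for GAACA and AAACC, each counted by itself. The window of the coding site held GGAC, as did 24.8% of the windows of all sites, and neither window held GAACA or AAACC, which were in 7.73% and 9.29% of all. In a window centred on the replicate 1 peak of the 3′UTR site, AAACC was found 1 time, so this absence depends on where the window is centred. The shared sites and a peak between them, significant in replicate 2 alone, are shown with 30 bases each of mm10, 5′ to 3′ on the plus strand of chromosome 7, because they come from the stretch that holds all sites of the 10 genes called in both replicates. Capitals mark GGAC. The coding site is taken from chr7:46877771-46877800, the peak between from chr7:46877825-46877854 and the 3′UTR site from chr7:46877920-46877949.
Ldhc coding site: gtggtatcacagactttgtgaaagtcaaca
Ldhc peak between: tcaagaagagtgcGGACacactctggaata
Ldhc 3′UTR site: ctgatcacggcagtcccactgaaagtgttt

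For comparison, the 30 bases at the centre of the Pgk2 peaks of replicate 1 with the highest value and with the most IP reads are given on the minus strand of chromosome 17, from chr17:40207321-40207350 and chr17:40208219-40208248. They show coding sequence of the gene with the highest medians, and the value of 3.39 at the former is the highest of an exonic significant peak in the 10 genes. GGAC is in the second of them, and a match describes the letters alone.
Pgk2 highest value: ggtggggcaagtcttgagcttctggaaggt
Pgk2 most reads: gaaGGACtgtgtgggccctgaagtagagca

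Ldha encodes the lactate dehydrogenase of muscle and many other cells, and lies just upstream of Ldhc on the same strand (chr7:46841475-46855627). It had a median log2(fold change) of 1.04 over 16 exonic clusters in replicate 1, from 0.12 to 2.03, and of 1.28 over 17 in replicate 2, from 0.65 to 2.67. Both medians were near the middle of the 6853 genes, above 49.3% of them in replicate 1 and 53.6% in replicate 2. Clusters covered 74.4% and 78.8% of its mRNA. The last exon of Ldha, exon 8, had medians of 1.58 and 1.64. Only exon 1 in replicate 1 and exon 5 in replicate 2 were higher, each at 1.86. Ldha had 1 significant peak in each replicate, and the peaks were apart, as most peaks of all genes were. The peak of replicate 1, chr7:46855148-46855210, was in the 3′UTR, with 2.03 from 36 IP and 15 SMInput reads, and no cluster of replicate 2 overlapped it. In replicate 2 the peak was in exon 5, at chr7:46850885-46850930, with 2.67 from 23 and 13 reads, and the overlapping clusters of replicate 1 had 1.04 and 0.70. The call of Ldha in both replicates therefore rests on separate places in the mRNA.

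The median of Ldhc was above that of Ldha by 0.31 in replicate 1 and by 0.26 in replicate 2. Between the replicates, the median of Ldhc differed by 0.18 and that of Ldha by 0.24. The difference between the genes was thus slightly larger than that between replicates of either. Both medians were higher in replicate 2, as was the median over the 6853 genes (1.05 and 1.25). The change between replicates is therefore not a measure of the spread of the difference between the genes. Single clusters varied by a median of 0.22 over 56 overlapping pairs of Ldhc and by 0.44 over 18 pairs of Ldha. Exon by exon, Ldhc had the higher median in 6 of 8 exons in each replicate, with a median difference of 0.40 in replicate 1 and 0.20 in replicate 2. By the highest exonic cluster of each gene, whatever its P value, Ldhc was higher by 0.35 in replicate 1, and the difference was −0.11 in replicate 2. The direction between these paralogs thus depends on the measure in replicate 2. Their coding sequences are 74.0% identical. Exact copies elsewhere in the genome exist for 41.0% of the 40-base windows of Ldha and for none of Ldhc, and their part in the difference was not tested.

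**Figure D2:**
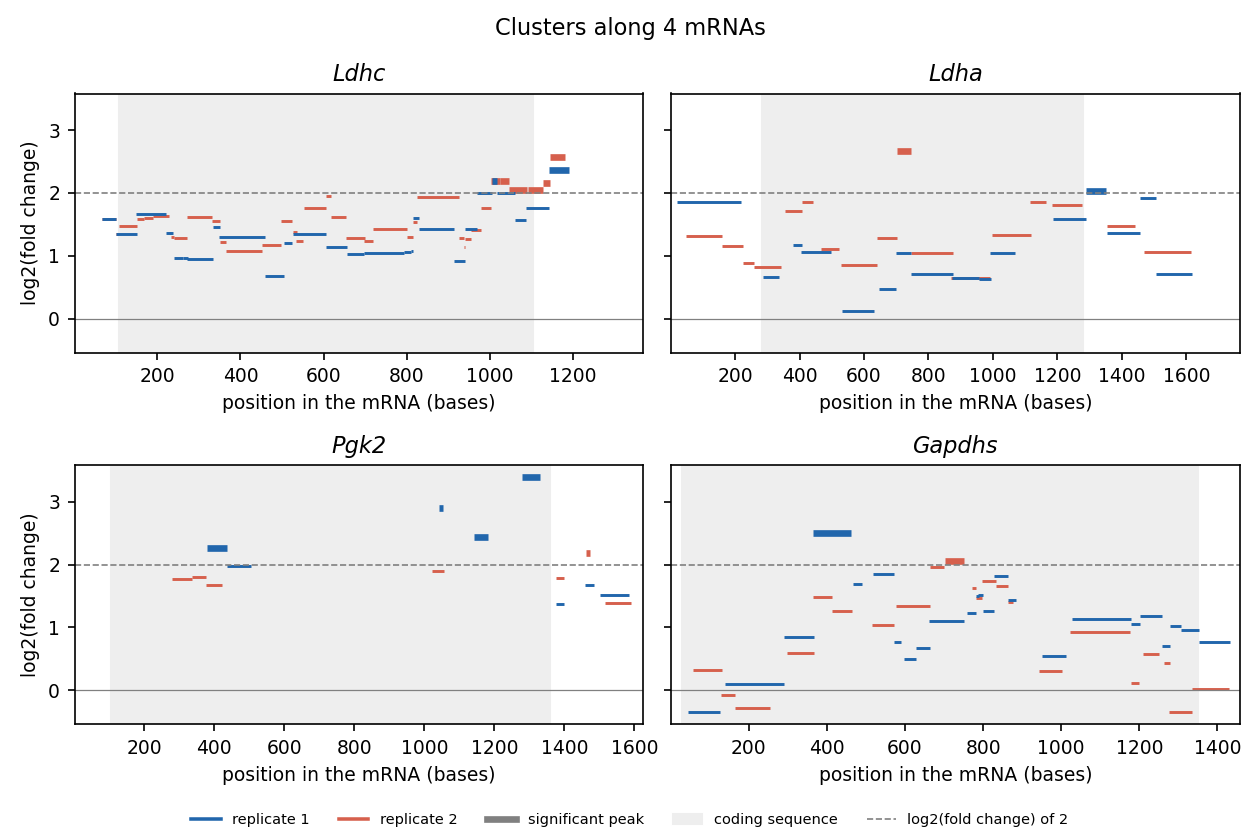
Clusters along the mRNAs of Ldhc, Ldha, Pgk2 and Gapdhs, with the position in the mRNA in bases on the horizontal axis and log2(fold change) on the vertical axis, blue for replicate 1, red for replicate 2, thick where significant, and the coding sequence shaded. The Ldhc clusters cover 82.0% and 81.2% of the mRNA and reach their highest values across the end of the coding sequence, where both replicates have significant peaks.

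Gapdhs encodes the glyceraldehyde phosphate dehydrogenase of sperm, bound to the fibrous sheath (chr7:30729775-30743681, minus strand). Its median log2(fold change) was 1.09 over 24 exonic clusters in replicate 1, from −0.35 to 2.50, and 0.92 over 23 in replicate 2, from −0.34 to 2.05. The −log10(P value) reached 2 in 15 and 12 of them. The median was above 53.0% of the 6853 genes in replicate 1 and 31.4% in replicate 2, lower ranks than those of Pgk2 and Ldhc. In each replicate, all but 1 of the exonic clusters of Gapdhs lay in coding sequence, and the ranks take no account of region. Its coding clusters had medians of 1.11 and 0.98, beside 0.76 and 0.93 for coding clusters of all genes. Gapdhs clusters covered 85.3% and 78.1% of the mRNA, as broadly as in Ldhc, but the values varied more along it. Exon 1 had −0.35 in replicate 1 and 0.33 in replicate 2, and exon 11, the last, had medians of 0.96 and −0.16. Exons 3, 6 and 7 had medians of 2.50, 1.17 and 1.51 in replicate 1 and of 1.37, 1.97 and 1.66 in replicate 2. Exons 9 and 10 had 1.13 and 1.06 in replicate 1, close to exon 6, and 0.92 and 0.43 in replicate 2. Exon 2 had 0.48 and −0.069, exon 4 had 1.77 and 1.03, exon 5 had 0.67 and 1.33, and exon 8 had 0.99 and 0.86. Exons 1 and 2 were thus low in both replicates and exons 3, 4, 6 and 7 above 1 in both, while their order differed between the replicates.

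The significant peaks of Gapdhs lay in exons 3 and 6 and met enriched clusters of the other replicate. In exon 3, chr7:30736926-30737023 had 2.50 (1.89 to 3.16) in replicate 1 from 97 IP and 29 SMInput reads, and replicate 2 had 1.26 (0.66 to 1.85) and 1.48 (0.93 to 2.03) there. In exon 6, chr7:30733084-30733132 had 2.05 (1.65 to 2.45) in replicate 2 from 115 and 100 reads, and replicate 1 had 1.11 (0.66 to 1.56). The clusters compared differ in extent between the replicates, and the places were picked because 1 replicate passed the thresholds, so no difference between the replicates is read from them.

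Gapdh encodes the common form of the enzyme and is often used as a reference gene. Its 9 exonic clusters of replicate 1 had a median log2(fold change) of −0.65, from −1.35 to 0.58, and its 7 of replicate 2 had 0.26, from −0.47 to 1.26. No exonic cluster of Gapdh reached a −log10(P value) of 2. The median changed sign between the replicates. Over the 2 and 6 clusters with at least 20 recovered reads it was 0.46 and 0.42, a setting that leaves out clusters listed at a −log10(P value) of 0. Over all exonic clusters, 0.277% of the 6853 genes had a lower one in replicate 1 and 5.08% in replicate 2. Gapdhs was above Gapdh by 1.74 in replicate 1 and by 0.66 in replicate 2. Between the replicates, the median of Gapdh differed by 0.92 and that of Gapdhs by 0.17. The difference between the genes was therefore larger than that between replicates of Gapdh in replicate 1 and smaller in replicate 2. By the highest exonic cluster, Gapdhs was above Gapdh by 1.92 and 0.79. Over single overlapping clusters, the median absolute difference was 1.12 in 8 pairs of Gapdh and 0.57 in 29 pairs of Gapdhs. Copies without a mismatch elsewhere in the genome exist for 85.7% of the 40-base windows of Gapdh and 0.705% of those of Gapdhs, and clusters covered 20.2% and 19.7% of the Gapdh mRNA. The part of the copies in these values was not tested.

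Hk1 encodes the hexokinase that traps glucose as its phosphate at the entry of the pathway. It had the most exonic clusters of the 10 genes, with a median log2(fold change) of 0.55 over 48 in replicate 1, from −0.92 to 1.76, and of 0.66 over 45 in replicate 2, from −0.36 to 3.43. A −log10(P value) of 2 was reached by 10 of the 48 and 14 of the 45. Clusters covered 80.6% and 84.0% of the Hk1 mRNA. Both medians were in the lower part of the 6853 genes, above 20.5% and 17.7% of them. The enrichment of Hk1 with the most reads lay in its 3′UTR, where chr10:62269211-62269295 had 1.66 (1.11 to 2.22) from 82 IP and 44 SMInput reads in replicate 1. A cluster of replicate 2 at chr10:62269170-62269297 had 1.55 (1.12 to 1.98) from 84 and 103 reads. This place was enriched to a like degree in both replicates, below the threshold of 2. The intron clusters of Hk1 had higher medians, 2.35 over 30 clusters in replicate 1 and 2.14 over 22 in replicate 2, from 3 to 11 and 3 to 8 IP reads each where reads could be recovered. Intron clusters of all genes were also higher than exonic ones, with medians of 2.03 and 1.85 against 1.08 and 1.20. The 5 significant peaks of Hk1 were all in introns in replicate 2, with 4 to 8 IP and 1 or 2 SMInput reads each and intervals as wide as 0.51 to 9.47, and no cluster of replicate 1 overlapped them.

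Aldoa encodes the aldolase that splits the sugar bisphosphate into smaller sugars, and the annotation holds 2 adjacent spans under this name on the minus strand of chromosome 7. The main span, chr7:126795234-126800751, had a median log2(fold change) of 0.39 over 17 exonic clusters in replicate 1 and of 0.42 over 13 in replicate 2. In the upstream span, chr7:126800790-126809108, 3 exonic clusters had a median of 0.76 in replicate 1 and 4 had 0.13 in replicate 2. Weighted by width, these medians were 0.20 and −0.27, so the upstream span had no stable direction. No cluster of either span reached a −log10(P value) of 2. Aldoa was thus among the genes with the least enrichment, with the main span above 13.4% and 9.34% of the 6853 genes. Clusters covered 47.8% and 37.8% of the mRNA of the main span. Exact copies elsewhere exist for 25.1% of the 40-base windows of its main mRNA.

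Pgam2 encodes the muscle form of phosphoglycerate mutase, which shifts the phosphate group within phosphoglycerate and is also made in testis. Its median log2(fold change) was 1.18 over 11 exonic clusters in replicate 1, from 0.22 to 1.71, and 1.20 over 9 in replicate 2, from 0.18 to 1.95. They covered 66.8% and 69.4% of the mRNA. All of them lay in the coding sequence, and the −log10(P value) reached 2 in 5 and 7 of them. Over 13 overlapping pairs the median absolute difference between replicates was 0.29. Pgam2 thus had medians close to each other in both replicates without a significant peak. They were above 56.1% and 47.8% of the 6853 genes. Coding clusters of all genes had medians of 0.76 and 0.93, and the ranks take no account of region. The cluster nearest the stop codon of Pgam2 was the lowest of the gene in both replicates.

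Pkm encodes pyruvate kinase, which makes pyruvate and ATP from phosphoenolpyruvate. Its median log2(fold change) was 0.18 over 24 exonic clusters in replicate 1, from −1.07 to 1.50, and −0.21 over 20 in replicate 2, from −1.44 to 1.24. No exonic cluster of replicate 1 and 1 of replicate 2 reached a −log10(P value) of 2. Of the 6853 genes, 6.49% and 0.832% had a lower median, so the exons of Pkm were among the least enriched of these mRNAs. The 12 and 4 clusters with at least 20 recovered reads had medians of 0.44 and 0.95, again without the clusters listed at 0. Clusters covered 53.4% and 47.5% of the mRNA. Pyruvate kinase mRNAs take 1 of a pair of exclusive exons, and both exons held clusters. In the upstream exon, of the M1 form, 3 clusters of replicate 1 at chr9:59675043-59675197 had 1.50, −0.015 and 0.50, and 1 of replicate 2 had 0.041. The downstream exon, of the M2 form, had 1 cluster in each replicate, at −0.46 and −0.34. Neither exon was enriched with a −log10(P value) of 2. The significant peaks of Pkm were both outside its exons, in introns where a non-coding exon of another annotated gene lies on the same strand. Replicate 1 had chr9:59672818-59672893 with 3.08 (0.85 to 6.31) from 10 IP and 2 SMInput reads, and replicate 2 had chr9:59676319-59676380 with 3.43 (0.95 to 6.77) from 6 and 2 reads. With clusters in exons alone, Pkm had no significant peak, and 4 of the 10 genes had one in both replicates. The share of all genes under this setting was not computed, so this count is not set against other genes. Exact copies exist for 51.2% of the 40-base windows of the Pkm mRNA, and their part in its values was not tested.

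By region, the 9 significant peaks of the 10 genes in replicate 1 comprised 6 in coding sequence, 2 in 3′UTRs and the 1 in a non-coding exon. The 15 of replicate 2 comprised 4 in coding sequence, 5 in 3′UTRs, 5 in introns and 1 in a non-coding exon. Among all significant peaks, coding sequence held 28.4% in replicate 1 and 20.4% in replicate 2, and 3′UTRs held 43.2% and 36.6%. Introns held 22.8% and 38.1% of all significant peaks, and non-coding exons 2.42% and 1.97%. The member peaks were too few, and those of Ldhc too close together, for a comparison of shares. Annotated transcripts of Ldhc differ in their stop codon, and peaks just before the main stop codon count as 3′UTR by the order used.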

How the data were processed

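The data were 2 replicates of IGF2BP3 eCLIP-seq of testis, each an IP paired with its SMInput. The authors removed ribosomal RNA reads, aligned to mm10 and called clusters. The deposited log2 values are the authors' ratios of IP to SMInput reads, each relative to its library. For −log10, the deposited values give the authors' P of that comparison, 0 for clusters without enrichment and 400 at most. Read numbers were recovered as the whole numbers that return both values, for 98.9% and 99.2% of clusters between these limits, and the recovery was tested on simulated data. Intervals of single clusters are 95% Clopper-Pearson intervals. Gene spans came from the full GENCODE M21 annotation and regions from its basic transcripts, 3′UTR before coding sequence. Exact copies were sought in mm10 for every 40-base window of 1 mRNA per gene. Coding identity came from pairwise alignment. All 10 genes are named, and of a list of 42 glycolysis genes those with a significant peak in both replicates and the other listed transporters. Members and lists were chosen with earlier results of these data known. No test between groups was made, since clusters are not replicates and an exact permutation test over 2 replicates cannot reach p of 0.05. Alternatives covered thresholds, overlap, assignment to genes, region order, weighting, a minimum of 20 reads and each replicate alone. Python 3.11.15, numpy 2.4.6, pandas 2.3.3, scipy 1.17.1, Biopython 1.88, matplotlib 3.10.9 and bedtools 2.31.1 were used.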

Additional observations from a re-analysis of the deposited data

How the results depend on the processing

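Of 83 values under alternatives, 58 kept their sign and moved by less than the spread between replicates (counts stayed of like size), 20 moved further and 5 changed sign. For shares, medians and differences, a replicate alone lies within this spread by construction unless its sign changed. Such values are among the 58 and do not show stability. The spread is wide for the region shares and for Gapdh. With both thresholds at 3, the 24 significant peaks of both replicates together fell to 2, and genes with a peak in both and shared sites to 0. A log2(fold change) of at least 1 gave 153 peaks and 28 shared sites. Fewer or more clusters pass by construction. Each replicate alone gave 218 to 252 clusters, 9 to 15 significant peaks and 9 to 9 sites. Medians were averaged over the replicates, except that values with Pgk1 come from replicate 1 alone. Weighting by width gave 0.45 for the main Aldoa span (0.41 before) and −0.032 for its upstream span (0.45). For Gapdhs it gave 0.80 and for Pgk1 0.95 (0.77). It gave 1.02 for Pgk2 minus Pgk1 (1.34) and 0.36 for Ldhc minus Ldha (0.28). The cause was not tested. Clusters with at least 20 reads gave 0.44 for Gapdh (−0.19), 0.70 for Pkm (−0.016), 0.56 for Aldoa and 1.19 for Gapdhs. Reads cannot be recovered for clusters listed at 0, so this setting drops depleted clusters by construction. Each replicate alone gave −0.65 to 0.26 for Gapdh and −0.21 to 0.18 for Pkm. With introns included, Pgk2 minus Pgk1 was 1.35, and by the highest cluster whose −log10(P value) reached 2, Ldhc minus Ldha was 0.12, and the cause was not tested. This measure gave no value for Gapdhs minus Gapdh or Pgk2 minus Pgk1, since Gapdh and Pgk1 have no such cluster. The minimum of 20 reads gave none for Pgk1, nor did replicate 2 alone for Pgk1 and its pair. No paired test was made, as no test was made at all, and each deposited value already pairs the IP with the SMInput of its replicate. Depth limits single clusters with few reads most, as the interval of 0.51 to 9.47 for Hk1 peaks with 4 IP reads shows.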

Other observations

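Of the 42 genes of the glycolysis list, 39 held clusters and 11 had a significant peak in both replicates (28.2% of the 39, beside 27.8% of all genes with clusters). In replicate 1, 68 of 934 clusters were significant (7.28%), in 13 genes, beside 4.92% of all clusters. In replicate 2, 97 of 727 were (13.3%), in 22 genes, beside 13.2% of all clusters. Besides the 5 genes of the report, these 11 are the transporters Slc2a3, Slc2a5 and Slc16a7, the transporter partner Bsg, the hexokinase Hk2 and Pfkfb2, which sets the level of an activator of phosphofructokinase. Slc2a3, a glucose transporter, had 24 of 70 clusters that passed in replicate 1 and 23 of 73 in replicate 2, with median exonic log2(fold change) values of 1.76 and 1.79. Slc2a5, a fructose transporter, had 12 of 38 and 17 of 38, with medians of 1.50 and 1.85. Slc16a7, a transporter of lactate and pyruvate, had 13 of 78 and 16 of 41, with medians of 1.93 and 2.41. Slc2a3, Slc2a5 and Slc16a7 thus held most significant peaks of the list in each replicate, so its shares rest largely on them. Bsg had 1 and 3, Hk2 had 3 and 4, and Pfkfb2 had 2 and 1. The other listed transporters had no significant peak in replicate 1, and in replicate 2 Slc2a1 had 4, Slc16a1 had 3 and Slc16a3 had none.

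Cell type markers were read as a check of the tissue. All 6 spermatid markers held clusters in replicate 1, and Acrv1 and Spaca1 had significant peaks in both replicates. Of 4 markers of spermatocytes and germ cells, Dazl and Ddx4 had them, while 27.8% of all genes with clusters did. Clusters were also found in all 4 Sertoli cell markers and all 5 Leydig cell markers, none with a significant peak in both replicates. Of the clusters of Leydig cell markers, 2 of 41 were significant in replicate 1 (4.88%) and 4 of 40 in replicate 2 (10%), at or below the shares of all clusters. The counts were 0 of 137 and 6 of 128 for Sertoli cell markers, 7 of 61 and 4 of 58 for spermatid markers, and 25 of 253 and 23 of 224 for markers of spermatocytes and germ cells. The median of gene medians in replicates 1 and 2 was 1.21 and 1.53 for Leydig cell markers, 1.07 and 1.21 for spermatid markers, 0.55 and 0.61 for markers of spermatocytes and germ cells, and 0.39 and 0.41 for Sertoli cell markers. Genes with at least 5 exonic clusters in each replicate had 1.05 and 1.25. No such minimum was set for the markers, and the Leydig cell marker Star had 2 exonic clusters in each replicate. Of 3 blood markers, Hba-a1 had 1 cluster in replicate 1, with a log2(fold change) of −5.37. Hbb-bs had 2 clusters there, with a median of −4.16, and neither had a cluster in replicate 2. Ptprc went the other way, with 4 clusters in replicate 1, an exonic median of 3.08 and no significant peak, and 2 clusters in replicate 2.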
